A study of Ovis aries with 9 samples.

Results

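Imprinted genes are expressed mainly from the allele inherited from 1 parent, the allele being chosen by DNA methylation that is set in the germ line. In mammals the paternally expressed members are known mostly for promoting growth of the fetus and placenta, and the maternally expressed ones mostly for restraining it, and many are abundant in fetal muscle and low in the adult. The 8 genes described here are growth-related imprinted genes that lie outside the DLK1 cluster of sheep, in which the callipyge muscle mutation maps. They were taken by name from the deposited expression table, where each name had 1 locus, so that 8 of 22605 loci were followed, and all 8 passed the filter that left 13086 loci for testing. PEG10 (locus MSTRG.2935), SGCE (MSTRG.2933), MEST (MSTRG.3134), NNAT (MSTRG.6643), PLAGL1 (MSTRG.4753) and PEG3 (MSTRG.7235) are known as paternally expressed, and CDKN1C (MSTRG.9347) and GRB10 (MSTRG.2911) as maternally expressed in most mouse tissues. The table sums both alleles, so imprinting itself was not measured.

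The libraries came from the longissimus dorsi, a back muscle, of fetal Chinese merino sheep. There were 3 from gestation day 85 (D85), 3 from day 105 (D105) and 3 from day 135 (D135), and no treatment or genotype was named. The values are FPKM, fragment numbers scaled to transcript length and to library size, so levels of different genes can be set side by side. Nothing in the labels ties each library to a fetus of its own, so p-values here reflect only how these libraries varied, which could be technical variation. Changes are differences in log2(FPKM + 1), a scale that understates the change of low genes, and a gene is said to have risen or fallen where limma gave an adjusted p under 0.05 over all 13086 loci.

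Read numbers cannot be had from FPKM, but single-transcript loci of low value gave a rough depth relative to D85 replicate 1. Only loci with a ratio near 1 were used, so a large difference in depth could not have been seen. Apart from D85 replicate 1 itself, each library's value rested on 108 to 163 loci. The relative depth was 0.993 to 1.04 in the D85 libraries, 1.01 to 1.07 in the D105 libraries and 1.12 to 1.2 in the D135 libraries. All 3 D135 libraries thus stood above those of the earlier days, and what this did to the changes was not tested. The 6 muscle fibre markers looked at (ACTA1, CKM, MYLPF, DES, TTN and MYH8) were abundant in all 9 libraries, with a summed level of 6710 to 8757 FPKM at D85, 7890 to 10493 FPKM at D105 and 14707 to 17634 FPKM at D135. They did not move together. For D135 against D105, 3 rose, 2 did not pass and MYH8 fell, against 4.47% of all loci that rose and 35.0% that fell. MYH8 was at 532 ± 184 FPKM at D135 and 1642 ± 340 FPKM at D105 (log2 change -1.66, adjusted p = 0.00363). Across all tested loci the median change was -0.02 over the earlier interval (D105 against D85), -0.33 over the later (D135 against D105) and -0.35 over the whole span (D135 against D85). Median-of-ratios scaling, which divides each library by its median ratio to the average library, moved the last 2 medians to 0.01 and 0.01, and changes are therefore given on both scales. D105 replicate 2 stood apart in connective tissue genes. Its summed tendon and cartilage markers reached 324 FPKM, against 12.9 and 18.0 FPKM in the other D105 libraries, and its summed fibroblast markers reached 6687 FPKM, against 2465 and 2489 FPKM.

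PEG10 was by far the most abundant of the 8 genes at D85 and D105. It is derived from the gag and pol genes of a retrotransposon and is required for placental development in mouse. Its level was 331, 423 and 316 FPKM in the D85 libraries, 206, 185 and 188 FPKM in the D105 libraries and 31.8, 21.8 and 24.9 FPKM in the D135 libraries. No library of a day overlapped with any library of another day, and the share of all loci for which this held is not given here. PEG10 alone made up 65.6% ± 1.82 of the summed FPKM of the 8 genes at D85, 59.3% ± 0.666 at D105 and 32.2% ± 4.50 at D135 (SD, n = 3). Over the same days that sum averaged 542, 326 and 80.7 FPKM. Next in level at D85 stood NNAT with 47.3 ± 11.1 FPKM, followed by SGCE (29.9 ± 2.61), MEST (29.8 ± 4.41), CDKN1C (29.7 ± 5.09), PLAGL1 (24.9 ± 1.17) and PEG3 (17.3 ± 5.97 FPKM), and GRB10 was lowest with 6.74 ± 1.17 FPKM. The ranges of SGCE, MEST, CDKN1C, PLAGL1 and PEG3 overlapped between neighbours in that order. At D135 the order was PEG10, SGCE, CDKN1C, GRB10, PLAGL1, PEG3, MEST and NNAT, and only the neighbours PLAGL1 and PEG3, and MEST and NNAT, overlapped in their libraries. NNAT thus stood second of the 8 at D85 and last at D135, where it averaged 2.44 ± 0.894 FPKM.

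**Figure D1:**
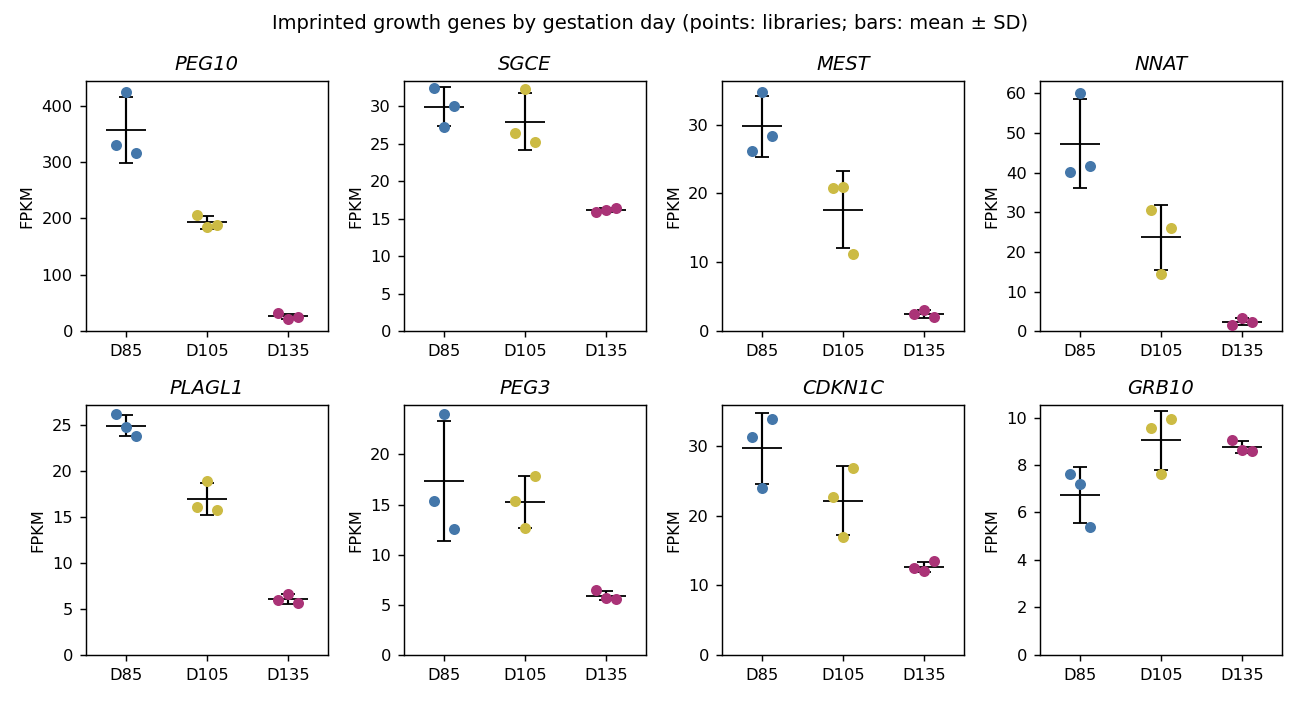
FPKM of each gene (vertical axes, from 0, each with its own range) in the libraries of D85, D105 and D135; points are libraries, and the bars give the mean and SD of 3. PEG10, MEST and NNAT were lowest in all 3 D135 libraries and intermediate in the D105 libraries, whereas the D135 libraries of GRB10 lay between 8.57 and 9.05 FPKM, above its D85 libraries.

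Between D85 and D105 none of the 8 genes passed the test, 0 that rose and 0 that fell, on a background of 0.199% of all loci called (26 of 13086). Over all loci, 1611 had an unadjusted p under 0.05. After median-of-ratios scaling the members' count was also 0, on a background of 0.191%. The change was negative in 7 of the 8, with a median of -0.48 against -0.02 for all loci. The D105 libraries did not overlap with the D85 libraries for PEG10, MEST, NNAT and PLAGL1, which were lower at D105. For GRB10, which was higher, they were separated only by 7.613 FPKM (D85 replicate 1) against 7.619 FPKM (D105 replicate 2). The share of all loci whose libraries separated in this way is not given here, so these separations are not read as changes.

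PEG10 averaged 193 ± 11.2 FPKM at D105 and 357 ± 58.1 FPKM at D85 (log2 change -0.87 ± 0.16 SE, adjusted p = 0.117). PLAGL1 had a smaller difference with a smaller error, averaging 16.9 ± 1.72 FPKM at D105 and 24.9 ± 1.17 FPKM at D85 (-0.53 ± 0.10 SE, adjusted p = 0.117). NNAT was at 50.0% of its D85 mean at D105, with a log2 change of -1.01 ± 0.30 SE and an adjusted p of 0.244. MEST was at 59.4% of its D85 mean (-0.76 ± 0.24 SE, adjusted p = 0.265). The other members differed less. The log2 changes of CDKN1C, PEG3 and SGCE were -0.42, -0.13 and -0.10, with adjusted p of 0.408, 0.861 and 0.767, and that of GRB10 was 0.38 (adjusted p = 0.331). The small difference of PEG3 turned to 0.12 without D85 replicate 2, the library in which PEG3 was highest.

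Between D105 and D135, 7 of the 8 genes fell, 0 rose and GRB10 did not pass, on a background of 35.0% of all loci that fell and 4.47% that rose. After median-of-ratios scaling 5 fell, 0 rose and 3 did not pass, on a background of 6.96% that fell and 10.6% that rose. The members had a median change of -1.28 as deposited, against -0.33 for all loci, and of -0.87 after scaling, against 0.01. The 5 that fell on both scales were PEG10, MEST, NNAT, PLAGL1 and PEG3. SGCE and CDKN1C fell as deposited only. The same 7 genes had D135 libraries that lay entirely below the D105 libraries as deposited, and after scaling those of CDKN1C overlapped. The share of all loci that separated in this way is not given here, and values as deposited were lower at D135 for most loci.

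NNAT had the steepest drop on the linear scale. It encodes a small membrane protein of the endoplasmic reticulum that resembles regulators of calcium pumps. Its level was 1.65, 3.41 and 2.26 FPKM in the D135 libraries against 30.5, 14.5 and 25.99 FPKM in the D105 libraries, which left 10.3% of the D105 mean (log2 change -2.81 ± 0.30 SE, adjusted p = 0.00101). After scaling the change was -2.44 ± 0.32 SE (adjusted p = 0.00242). Its lowest D105 value came from replicate 2, the library rich in connective tissue markers.

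PEG10 fell to 26.2 ± 5.13 FPKM at D135, against 193 ± 11.2 FPKM at D105 (log2 change -2.85 ± 0.16 SE, adjusted p = 0.000165, and -2.40 ± 0.14 SE with adjusted p = 0.000258 after scaling). MEST, a protein of the alpha/beta hydrolase fold that is known from growing mesoderm and fat tissue of mice, had 2.48, 3.11 and 1.997 FPKM in the D135 libraries against 20.8, 21.0 and 11.2 FPKM in the D105 libraries. Its D135 mean was 14.3% of the D105 mean (-2.36 ± 0.24 SE, adjusted p = 0.000990). These 3 genes had changes among the lowest of all: of 13086 tested loci, 15 changed as far down as PEG10 or further, 17 as far as NNAT and 35 as far as MEST, each gene counting itself.

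The zinc finger genes fell less steeply. PLAGL1, a transcription factor that slows cell division when overexpressed and regulates other imprinted genes in mouse, was at 5.92, 6.63 and 5.65 FPKM in the D135 libraries against 16.1, 18.9 and 15.8 FPKM in the D105 libraries (log2 change -1.34 ± 0.10 SE, adjusted p = 0.000543). PEG3, a large zinc finger protein found in muscle stem cells of mice, was at 6.48, 5.67 and 5.62 FPKM at D135 against 15.3, 12.7 and 17.8 FPKM at D105 (-1.22 ± 0.22 SE, adjusted p = 0.00527). After scaling their changes were -0.93 and -0.81 with adjusted p of 0.00148 and 0.0305. The PEG3 locus joins PEG3 with LOC105602103 in the table, and its reads cannot be divided between the 2 names.

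SGCE, the epsilon subunit of the sarcoglycan complex of the cell membrane, was at 16.0, 16.1 and 16.5 FPKM in the D135 libraries against 26.4, 32.2 and 25.2 FPKM in the D105 libraries. The log2 change was -0.74 ± 0.11 SE (adjusted p = 0.00280), and after scaling it was -0.31 ± 0.12 SE with an adjusted p of 0.114. CDKN1C, the p57 inhibitor of cyclin-dependent kinases that accompanies the exit of muscle precursors from the cell cycle in mouse, was at 12.5, 12.03 and 13.5 FPKM at D135 against 22.7, 16.9 and 26.9 FPKM at D105. Its log2 change was -0.74 ± 0.18 SE (adjusted p = 0.0151), and it did not pass after scaling (-0.31 ± 0.20 SE, adjusted p = 0.348) or with quantile normalization (-0.50, adjusted p = 0.132). Without D135 replicate 2 the change was -0.71 with an adjusted p of 0.0505.

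GRB10, an adaptor that binds the insulin and IGF receptors and dampens their signal, did not follow the others. It was at 9.05, 8.64 and 8.57 FPKM in the D135 libraries against 9.56, 7.62 and 9.95 FPKM in the D105 libraries, and these ranges overlapped. The log2 change was -0.03 ± 0.14 SE as deposited (adjusted p = 0.863), and it turned to 0.38 ± 0.13 SE after scaling (adjusted p = 0.0840), so no direction is given for GRB10 over this interval.

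**Figure D2:**
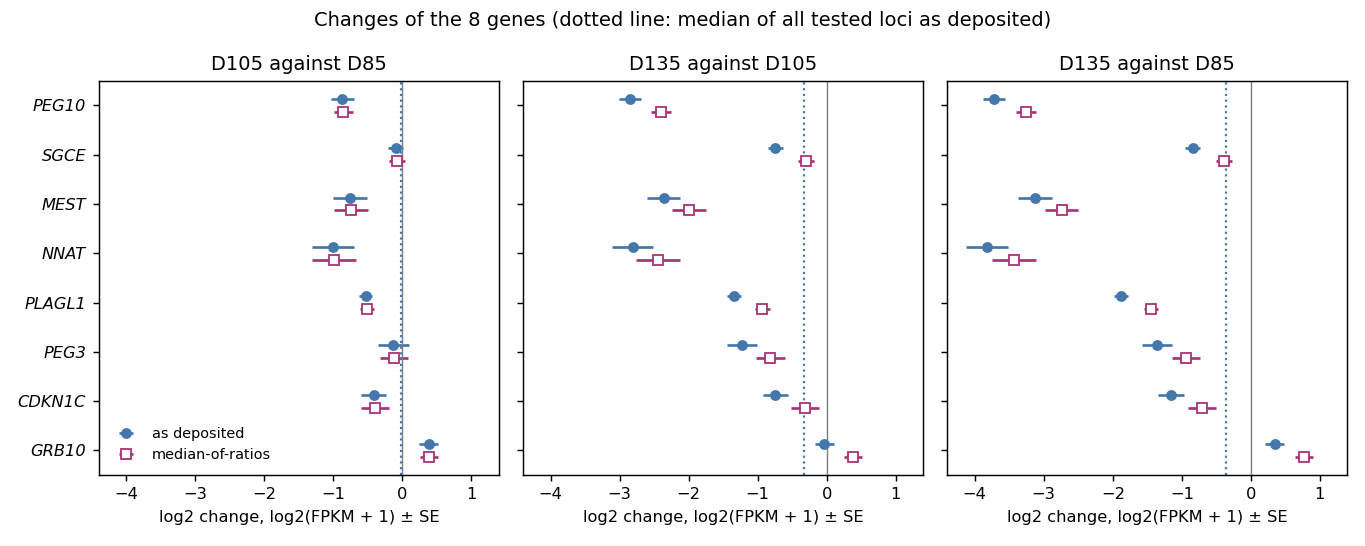
Log2 change ± SE of the 8 genes in the 3 comparisons, as deposited (filled circles) and after median-of-ratios scaling (open squares); the dotted line is the median of all tested loci as deposited. For D135 against D105, PEG10, MEST and NNAT lay between -2.85 and -1.99 on both scales, and the 2 estimates for GRB10 lay on either side of 0.

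Over the whole span, D135 against D85, 7 genes fell, 0 rose and GRB10 did not pass, on a background of 39.7% of loci that fell and 6.90% that rose. After median-of-ratios scaling the same 7 fell and GRB10 rose, on a background of 12.5% that fell and 14.9% that rose. The members' median was -1.62 as deposited (all loci -0.35) and -1.19 after scaling (all loci 0.01). NNAT changed the most, with a log2 change of -3.82 ± 0.30 SE (adjusted p = 0.000163), and its mean was 19.4-fold lower at D135 than at D85, or 13.8-fold lower after scaling. PEG10 was 13.6-fold lower (-3.72 ± 0.16 SE, adjusted p = 4.56e-05) and 9.82-fold lower after scaling. MEST was 11.8-fold lower (-3.13 ± 0.24 SE, adjusted p = 0.000160) and 8.42-fold lower after scaling. NNAT, PEG10 and MEST stood at places 6, 7 and 20 from the lowest change among all 13086 loci.

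PLAGL1 was 4.11-fold lower at D135 than at D85 (log2 change -1.88 ± 0.10 SE, adjusted p = 8.24e-05), PEG3 2.93-fold (-1.36 ± 0.22 SE, adjusted p = 0.00211) and CDKN1C 2.35-fold (-1.16 ± 0.18 SE, adjusted p = 0.00180). SGCE was 1.85-fold lower (-0.84 ± 0.11 SE, adjusted p = 0.000911) and 1.33-fold lower after scaling (adjusted p = 0.0385). PEG3 and CDKN1C passed after scaling with adjusted p of 0.0118 and 0.0337. GRB10 averaged 8.75 ± 0.259 FPKM at D135 and 6.74 ± 1.17 FPKM at D85, where its libraries held 7.61, 7.20 and 5.41 FPKM and did not overlap with the D135 libraries. Its log2 change was 0.35 ± 0.14 SE as deposited (adjusted p = 0.0746) and 0.77 ± 0.13 SE after scaling (adjusted p = 0.00377). The share of all loci whose libraries separated as those of GRB10 did is not given here.

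**Figure D3:**
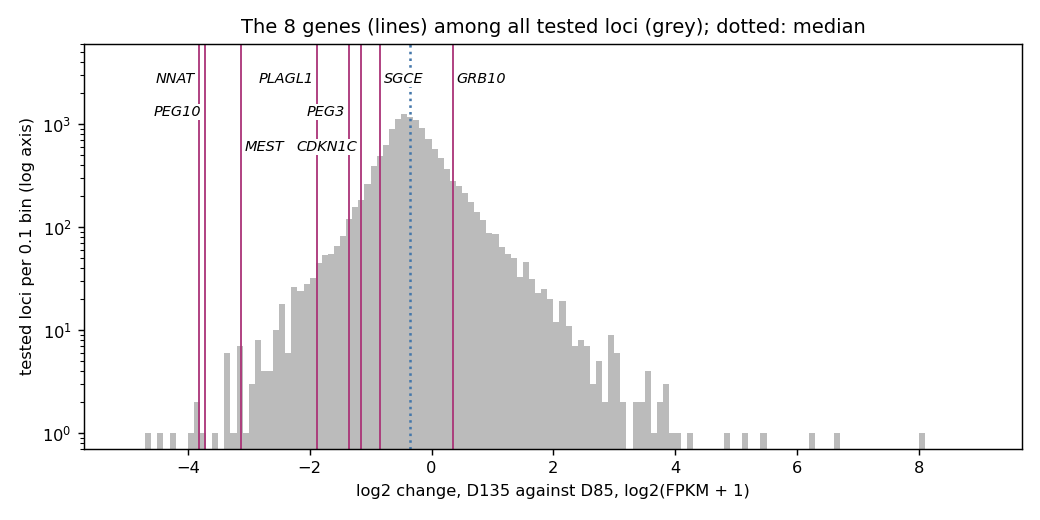
Number of tested loci by log2 change for D135 against D85, as deposited (grey, bins of 0.1, log vertical axis), with a line at each of the 8 genes and a dotted line at the median of -0.35. NNAT, PEG10 and MEST lay in the far lower tail, SGCE at -0.84 lay near the bulk, and GRB10 lay above 0.

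The later change (D135 against D105) was also set against the earlier one (D105 against D85) by the difference between the 2, a contrast added after the values were seen. It compares whole intervals, of which the later is the longer, and not rates per day. The difference was negative for all 8 genes as deposited, with a median of -0.95 (all loci -0.32), and for 7 of 8 after scaling, with a median of -0.55 (all loci 0.02). For GRB10 a negative difference stands for a smaller change in the later interval, since its changes were 0.38 and then -0.03. As deposited 1 of 8 passed, PEG10 (difference -1.98 ± 0.28 SE, adjusted p = 0.0414), on a background of 0.352% of loci called. After scaling 0 of 8 passed, on a background of 0.115%, and PEG10 had a difference of -1.54 ± 0.24 SE (adjusted p = 0.0650). PEG10 passed in 6 of 17 alternatives, with an adjusted p of up to 0.173 among the others. With 1 library left out, it passed without D85 replicate 2 or D135 replicate 1 and did not pass without any of the other 7. MEST and NNAT had differences of -1.60 and -1.80 with adjusted p of 0.0966 and 0.111.

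Ratios of 2 members within the same library cannot be moved by any scaling of whole libraries. The 6 ratios tested were not among the planned tests, and they use the same genes and libraries as the fits above. Their p-values therefore restate differences between genes that those fits already show, and they are no separate support. The 6 were picked from the possible pairs of the 8 genes, and the adjustment covers these 6 alone. How often other pairs separated by day is not given here. PEG10 and SGCE are direct neighbours in the RefSeq annotation of the ARS-UI_Ramb_v3.0 assembly, used here for the order of genes alone, and in mouse and human they are transcribed away from each other from a shared control region. The ratio of PEG10 to SGCE was 10.2, 15.5 and 10.54 in the D85 libraries, 7.80, 5.74 and 7.45 in the D105 libraries and 1.99, 1.35 and 1.51 in the D135 libraries. The days did not overlap, and an exact permutation test of the log2 ratios over the 3 days gave the smallest p the design allows, p = 0.00357 (0.00536 after adjustment over 6 ratios). The ratios of MEST and of NNAT to SGCE gave the same exact permutation p. NNAT was at 1.61 ± 0.521 times SGCE at D85, 0.878 ± 0.376 at D105 and 0.151 ± 0.0552 at D135 (SD, n = 3).

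PEG10 and MEST had a ratio of 11.99 ± 0.734 at D85, 11.8 ± 4.31 at D105 and 10.8 ± 3.26 at D135 (exact permutation p = 0.861), but a p this high does not show that the ratio was constant, since it ranged from 7.003 to 16.8 over the libraries. The ratio of PLAGL1 to PEG3 was 1.54 ± 0.454, 1.14 ± 0.314 and 1.03 ± 0.129 on the 3 days (exact permutation p = 0.236). CDKN1C and GRB10, the maternally expressed pair, came closer in level over the days. CDKN1C was at 4.57 ± 1.51 times GRB10 at D85, 2.43 ± 0.244 at D105 and 1.45 ± 0.108 at D135, with no overlap between days (exact permutation p = 0.00357, the smallest possible, and 0.00536 adjusted over 6).

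**Figure D4:**
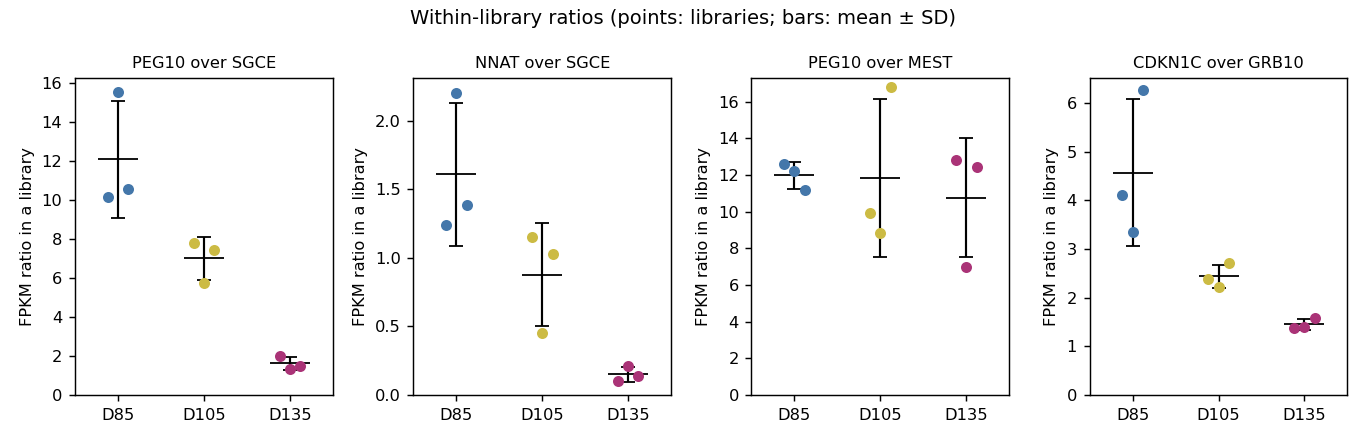
FPKM ratio of 2 genes in the same library (vertical axes, from 0) by day; points are libraries, and the bars give the mean and SD of 3. The ratios of PEG10 and NNAT to SGCE and of CDKN1C to GRB10 were lower on each later day, and that of PEG10 to MEST spread from 7.003 to 16.8 with the days overlapping.

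The spread within a day differed between members. At D85 the coefficient of variation was lowest for PLAGL1 (4.68%) and highest for PEG3 (34.5%), and D85 replicate 2 held the highest PEG10, MEST, NNAT and PEG3 of that day. At D105 PEG10 varied by 5.83% and NNAT by 34.8%. D105 replicate 2, with its high connective tissue markers, held the lowest value of the day for 5 of the 8 genes and the highest for SGCE, MEST and PLAGL1. Without that library 0 of 8 genes passed over the earlier interval, 7 over the later and 7 over the whole span, as with it.

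Markers of other cell types were summed to set beside these changes, and their part in the results was not tested. In whole tissue, fewer cells of a type and less RNA per cell cannot be told apart. The 5 satellite cell and myoblast markers (PAX7, MYF5, MYOD1, CDH15 and CALCR) summed to 35.4 to 52.0 FPKM at D85, 19.3 to 47.3 FPKM at D105 and 8.66 to 9.57 FPKM at D135. On this scale, as deposited, the D135 libraries lay below all others, and within D105 the lowest sum was in replicate 2. For D135 against D105, 4 of the 5 fell as deposited, against 35.0% of all loci. After scaling 3 fell, against 6.96%, and MYF5 and MYOD1 did not pass (adjusted p = 0.257 and 0.505). The 6 endothelial markers summed to 147 to 174 FPKM at D85, 225 to 239 FPKM at D105 and 166 to 207 FPKM at D135, as deposited. For D105 against D85, 1 of the 6 rose and 0 fell on either scale. For D135 against D105, 1 fell and 0 rose as deposited, and after scaling 0 fell and 0 rose. For D135 against D85, 3 rose and 0 fell as deposited, against 6.90% and 39.7% of all loci. After scaling 5 rose and 0 fell over that span, against 14.9% and 12.5%. The 7 fibroblast markers summed to 1991 to 3148 FPKM at D85, 2465 to 6687 FPKM at D105 and 1388 to 3253 FPKM at D135. The 6 pericyte and smooth muscle markers summed to 74.5 to 112 FPKM over all libraries, but they did not move together. RGS5 rose in all 3 comparisons on both scales, with 3.11 ± 0.0747 FPKM at D85, 17.3 ± 5.47 FPKM at D105 and 30.7 ± 4.57 FPKM at D135 (D135 against D85 2.94, adjusted p = 0.000126). CSPG4, CNN1 and NOTCH3 fell for D135 against D85 as deposited (-0.96, -2.20 and -1.08, adjusted p = 0.00411, 0.0144 and 0.000865), and after scaling NOTCH3 alone of these fell (adjusted p = 0.00549). The 5 Schwann cell markers summed to 26.7 to 53.2 FPKM and 4 matched leukocyte markers of 5 to 11.3 to 22.1 FPKM. The 4 matched erythroid markers of 5 summed to at most 7.66 FPKM, with AHSP and HBM each at 0 in at least 1 library. The 5 adipocyte markers summed to 1.87 to 15.7 FPKM at D85, 5.44 to 114 FPKM at D105 and 13.8 to 71.9 FPKM at D135, with FABP4 at 0 in 1 of the 9 libraries. The 7 tendon and cartilage markers, of which COMP was at 0 in at least 1 library, summed to 18.8 to 57.6 FPKM at D85, 12.9 to 324 FPKM at D105 and 3.42 to 115 FPKM at D135.

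Other imprinted genes were read from a list of 34 names, of which 28 loci matched and 19 were tested. They were listed by name, and whether each is imprinted in sheep muscle was not measured. Between D85 and D105 0 of 19 passed. For D135 against D105, 8 fell, 0 rose and 11 did not pass, on a background of 35.0% of all loci that fell and 4.47% that rose, with a median of -0.43 (all loci -0.33). After scaling 5 fell, 0 rose and 14 did not pass, on a background of 6.96% that fell and 10.6% that rose, with a median of -0.05 (all loci 0.01). These backgrounds are also those of the lists for D135 against D105 that follow. The 5 were IGF2R, DLK1, RTL1, KCNQ1 and PPP1R9A. RTL1, a retrotransposon-derived relative of PEG10 in the DLK1 cluster, was at 4.07 ± 1.48 FPKM at D135 and 19.9 ± 4.39 FPKM at D105 (log2 change -2.07, adjusted p = 0.0031). DLK1, a membrane protein that restrains differentiation, was at 12.7 ± 0.0614 FPKM at D135 and 54.4 ± 20.5 FPKM at D105 (-1.95, adjusted p = 0.00421). IGF2, the fetal growth factor, was at 13.4 ± 0.131 FPKM at D135 and 49.8 ± 21.5 FPKM at D105 (-1.72, adjusted p = 0.0191, and 0.0768 after scaling). KCNQ1, a potassium channel next to CDKN1C, had 5 loci, of which the one with the highest mean FPKM was read. That locus was at 7.98 ± 1.09 FPKM at D135 and 21.1 ± 3.76 FPKM at D105 (-1.29, adjusted p = 0.00162).

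For D135 against D85, 11 of the 19 other imprinted loci fell, 0 rose and 8 did not pass, on a background of 39.7% that fell and 6.90% that rose. After scaling 6 fell, 1 rose and 12 did not pass, on a background of 12.5% that fell and 14.9% that rose. RTL1, DLK1 and IGF2 changed by -2.51, -2.52 and -2.23, less far down than PEG10, NNAT and MEST in these libraries, a difference between genes that was not tested. IGF2R, the receptor that clears IGF2, whose locus is joined with 2 unnamed ones, changed by -1.37. COPG2, a coat protein gene whose span overlaps that of MEST in RefSeq, was the one that rose after scaling (0.57, adjusted p = 0.0416). GNAS, the stimulatory G protein subunit and the most abundant of the list, was at 208 ± 29.6 FPKM at D135 and 324 ± 51.2 FPKM at D85, and it fell as deposited (-0.64, adjusted p = 0.0109) but did not pass after scaling (-0.17, adjusted p = 0.438). NDN was listed at 0 in 5 of the 9 libraries and at up to 16.2 FPKM in the others, so its values are doubtful.

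**Figure D5:**
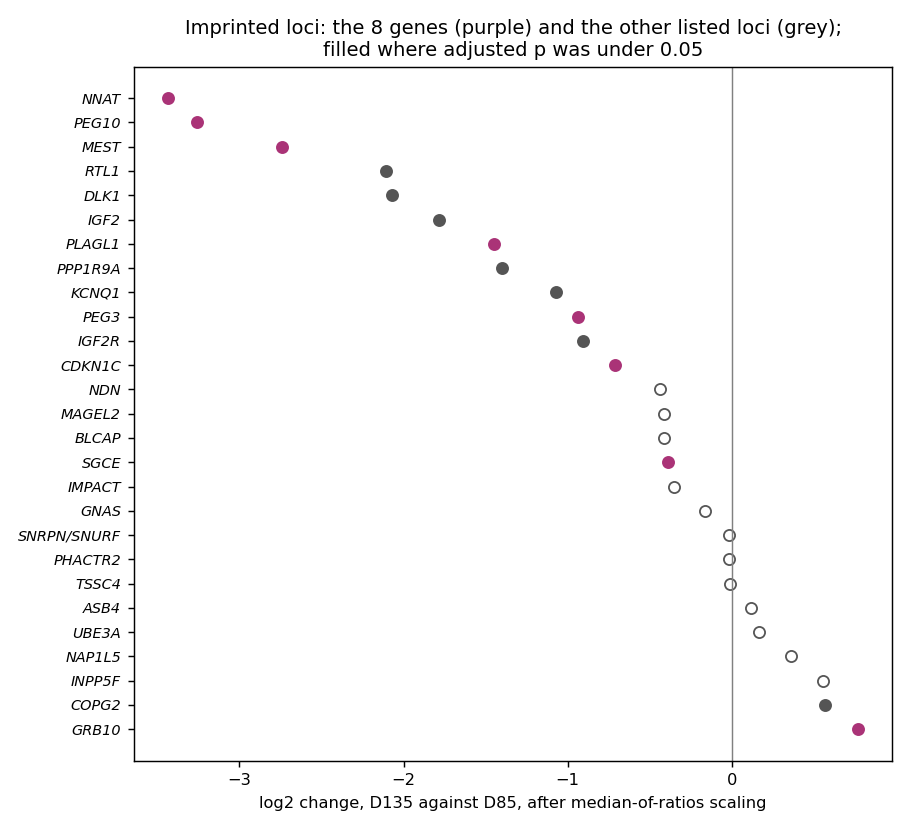
Log2 change for D135 against D85 after median-of-ratios scaling for the 8 genes (purple) and the 19 other imprinted loci tested (grey), in order of the change; filled points had an adjusted p under 0.05. NNAT, PEG10 and MEST had the lowest values of the 27, GRB10 the highest, and SGCE lay among loci that did not pass.

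The genes beside the members in RefSeq did not all move with them. Of 28 neighbours, the nearest 2 named genes on each side of each member, 27 matched a locus and 16 were tested. For D135 against D105, 8 of 16 fell and 0 rose, on a background of 35.0% that fell and 4.47% that rose, and after scaling 3 fell and 1 rose, on a background of 6.96% that fell and 10.6% that rose. The 8 were CASD1, PPP1R9A, SRC, CEP41, ZNF304, KCNQ1, FIGNL1 and LTV1, of which PPP1R9A, SRC and KCNQ1 also fell after scaling. SRC, a tyrosine kinase gene near NNAT, was at 1.16 ± 0.0842 FPKM at D135 and 3.11 ± 0.178 FPKM at D105 (-0.93, adjusted p = 0.00101, and 0.00306 after scaling). CTNNBL1, on the other side of NNAT, was at 8.05 ± 0.527 FPKM at D135 and 8.11 ± 0.363 FPKM at D105 (-0.01, adjusted p = 0.932), and it was the one that rose after scaling (0.40, adjusted p = 0.0096). BLCAP, COPG2, ZNF835, COBL, SF3B5, STX11 and COL1A2 passed on neither scale. Beside PEG10, PPP1R9A, a scaffold protein of the actin cytoskeleton that is imprinted in some tissues, was at 4.60 ± 1.13 FPKM at D135 and 12.2 ± 1.84 FPKM at D105 (log2 change -1.25, adjusted p = 0.00203, and -0.85 with adjusted p = 0.0137 after scaling). CASD1, on the other side of SGCE, was at 3.01 ± 0.379 FPKM at D135 and 5.21 ± 0.291 FPKM at D105 (-0.63, adjusted p = 0.00356, and 0.125 after scaling). ZIM2, the imprinted neighbour of PEG3, was too low to be tested, at 0.995 ± 0.0914 FPKM at D85, 0.600 ± 0.102 FPKM at D105 and 0.0685 ± 0.0209 FPKM at D135. PHLDA2 and SLC22A18, the imprinted neighbours of CDKN1C, were at or near 0.

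NNAT lies within the span of BLCAP, and how the strands were counted is not given in the sources used here, so reads of such overlapping genes may not be separable. BLCAP, joined in the table with LOC105616738, was at 5.47 ± 2.49 FPKM at D135 and 10.7 ± 6.65 FPKM at D105 and did not pass (-0.70, adjusted p = 0.426). COPG2, overlapping MEST, was at 6.92 ± 1.10 FPKM at D135 and 6.04 ± 1.54 FPKM at D105 (0.18, adjusted p = 0.412), while MEST fell. ZC2HC1B, overlapping PLAGL1, was at 0.361 ± 0.122 FPKM at D135 and was not tested.

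Of 6 tested paralogs of the members, 3 fell and 0 rose for D135 against D105 (CDKN1A, PLAG1 and RTL1), against 35.0% and 4.47% of all loci, and after scaling RTL1 alone fell. SGCA, the alpha-sarcoglycan of muscle, was at 53.3 ± 12.3 FPKM at D135 and 57.2 ± 5.02 FPKM at D105 and did not pass (-0.12, adjusted p = 0.706). SGCB, the beta-sarcoglycan, was not among the paralogs counted here. It did not pass for D135 against D105 as deposited (0.15, adjusted p = 0.357) and rose after scaling (0.57, adjusted p = 0.0121). For D135 against D85 it rose on both scales, to 10.1 ± 0.646 FPKM at D135, against 7.40 ± 1.27 FPKM at D85 (0.41, adjusted p = 0.0267, and 0.84 with adjusted p = 0.00134 after scaling). CDKN1A, the p21 relative of CDKN1C, was at 1.92 ± 0.448 FPKM at D135 and 8.19 ± 4.63 FPKM at D105 (-1.50, adjusted p = 0.0322, and 0.121 after scaling). CDKN1B, the p27 relative, was at 9.69 ± 2.56 FPKM at D135 and 10.1 ± 4.35 FPKM at D105 and did not pass (-0.02, adjusted p = 0.972). PLAG1 and PLAGL2, the relatives of PLAGL1, were at 0.545 ± 0.136 and 1.13 ± 0.290 FPKM at D135 and at 2.03 ± 0.512 and 2.74 ± 0.512 FPKM at D85, and both fell over the whole span as deposited (-0.96 and -0.81, adjusted p = 0.00383 and 0.0254), with an adjusted p of 0.0164 and 0.148 after scaling. GRB7 and GRB14, the relatives of GRB10, stayed under the filter, with a mean of at most 0.565 FPKM on any day.

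Of 18 tested cell cycle genes other than CDKN1C (cyclins, their kinases and kinase inhibitors, the retinoblastoma family and E2F1), 15 fell and 0 rose for D135 against D105, against 35.0% and 4.47% of all loci, with a median of -0.85. After scaling 5 fell and 0 rose, against 6.96% and 10.6% of all loci, with a median of -0.48. Those 5 were CDK1, CCNA2, CCNB1, CCND2 and RBL1, of which the CCNA2 locus is joined with BBS7. CDK1, the kinase of mitosis, was at 1.24 ± 0.360 FPKM at D135 and 4.38 ± 0.400 FPKM at D105 (-1.28, adjusted p = 0.00101). CCND2, a D-type cyclin, was at 11.7 ± 0.538 FPKM at D135 and 27.7 ± 2.70 FPKM at D105 (-1.17, adjusted p = 0.000637).

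Around GRB10, 8 of 16 tested insulin and IGF signalling genes fell and 0 rose for D135 against D105, against 35.0% and 4.47% of all loci, and after scaling 1 fell and 3 rose, against 6.96% and 10.6%. The list's median was -0.34 as deposited and 0.02 after scaling, beside -0.33 and 0.01 for all loci. SHC1, an adaptor, fell on both scales and was at 13.2 ± 0.531 FPKM at D135 and 25.0 ± 1.13 FPKM at D105 (-0.87, adjusted p = 0.000931). The insulin receptor INSR was at 10.6 ± 2.91 FPKM at D135 and 7.60 ± 0.750 FPKM at D105 (0.40, adjusted p = 0.154, and 0.81 with adjusted p = 0.0399 after scaling), and IRS1 and PIK3R1 also rose after scaling. IGF1R fell as deposited only, to 5.60 ± 0.386 FPKM at D135, against 8.64 ± 1.12 FPKM at D105 (-0.54, adjusted p = 0.00752). IGF1, a ligand of that receptor, also fell as deposited only, to 7.14 ± 1.70 FPKM at D135, against 11.9 ± 2.63 FPKM at D105 (-0.66, adjusted p = 0.0300, and 0.421 after scaling).

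Of 4 tested genes of the calcium pumps and their small regulators, which NNAT resembles, 2 rose and 0 fell for D135 against D105 on either scale. ATP2A1, the fast-fibre pump, rose to 464 ± 95.3 FPKM at D135, against 177 ± 33.2 FPKM at D105 (1.38, adjusted p = 0.00244), and ATP2A2, the slow-fibre pump, rose to 149 ± 54.5 FPKM, against 52.6 ± 4.50 FPKM (1.42, adjusted p = 0.00342). SLN, sarcolipin, a small inhibitor of these pumps, was at 71.4 ± 15.7 FPKM at D135 and 303 ± 210 FPKM at D105 and did not pass (-1.67, adjusted p = 0.0769). Of 7 tested PEG3 partners and satellite cell genes, 3 fell and 0 rose for D135 against D105, TRAF2, PAX7 and MYOD1, and after scaling PAX7 alone fell. PAX7, the satellite cell factor, was at 0.518 ± 0.0618 FPKM at D135 and 1.97 ± 0.379 FPKM at D105 (-0.96, adjusted p = 0.00444).

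Of 12 tested genes that set, keep or remove DNA methylation or bind imprinted regions, 6 fell and 0 rose for D135 against D105, against 35.0% and 4.47% of all loci, with a median of -0.31 (all loci -0.33). The 6 were DNMT1, DNMT3B, UHRF1, TRIM28, SMCHD1 and TET1, and TET1 starts the removal of methylation. After scaling 2 fell and 0 rose, against 6.96% and 10.6% of all loci. Those 2 were UHRF1, which guides the maintenance methyltransferase, and DNMT3B, a methyltransferase that sets new marks. UHRF1 was at 2.18 ± 0.706 FPKM at D135 and 7.89 ± 1.24 FPKM at D105 (-1.50, adjusted p = 0.00192). DNMT1, the maintenance methyltransferase, was at 8.21 ± 0.764 FPKM at D135 and 14.6 ± 0.884 FPKM at D105 (-0.77, adjusted p = 0.0015, and 0.0568 after scaling). ZFP57 and CTCF, which bind imprinted control regions, did not pass (adjusted p = 0.990 and 0.167).

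The loci with the most similar course were found by the root mean square difference of standardised log2 values over the 9 libraries, in SD units, among tested loci with a symbol. They were TP53BP1 (0.0774), CKAP5 and the joined SMARCB1 and SLC2A11 locus for PEG10, RFXANK (0.0912), ESYT1 and MAPK8IP1 for NNAT, and MCM3 (0.112), SRGAP3 and AURKA for MEST. For PLAGL1 they were TRIM37 (0.0814), CCND2 and SFRP1, for PEG3 FBF1 (0.130), KMT2C and SCAF1, and for SGCE GPATCH2 (0.112), MFSD1 and BET1. CDKN1C had CELF1 (0.171), PRTG and CCT8, and GRB10 had GYPC (0.245), the joined CTNNA3 and LOC101102450 locus, and TFEB. Among the members, MEST and PLAGL1 were the most alike (0.172), with 19 other tested loci nearer to MEST than PLAGL1 was, and PEG10 and PLAGL1 came next (0.181, with 106 loci nearer to PEG10). GRB10 was at 1.55 to 1.75 from each of the others. A short difference in this measure is one of shape only: TP53BP1 was at 8.58 FPKM at D135 and 20.2 FPKM at D85, a far smaller fold than that of PEG10.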

How the data were processed

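Kits for mRNA and for small RNA are named in the labels' protocols, and the table analysed holds gene expression. The authors deposited FPKM values, 1 column for each library, as the file header names them. The submitters' processing notes name cutadapt, Bowtie2 and TopHat2; the versions, genome build, assembler and strand handling were not given in the sources used here. Libraries were grouped by title, 3 a day. Loci were named by the table, and 492 of them from RefSeq (ARS-UI_Ramb_v3.0). Loci that reached 1 FPKM in 3 or more libraries (13086 of 22605) were fitted as log2(FPKM + 1) with limma 3.58.1 (R 4.3.3; lmFit, contrasts, eBayes with a trend), all 9 libraries together, two-sided, with Benjamini-Hochberg adjustment over all tested loci and a threshold of 0.05. The fit was tested on simulated data. Of 183 list entries 174 matched a locus, and SNRPN and SNURF share a locus. Where a list gene or neighbour had several loci, such as KCNQ1 with 5 and IGF1R with 4, the one with the highest mean FPKM was read. The members and the lists were chosen with earlier results of these data known. Genes named were all members, up to 4 called genes of each list with the largest change (otherwise the 2 with the highest mean), the 3 most similar loci of each member and its 2 nearest RefSeq neighbours on each side. Of these, neighbours too low to be tested and list genes picked for a comparison other than D135 against D105 were named in part only, and any other gene, such as NDN, GNAS, INSR or SLN, was named after its values were seen. The contrast between intervals and the block with scaling were added after seeing the data, and the within-library ratios and their permutation test were not planned. Depth limits the precision of FPKM to an unknown extent, since no read numbers are given. Promoter and protein sequences were not analysed here, and the counts of the sarcoglycan list are not reported here. The design text names 2 sequencer models without assigning libraries, so a batch could not be tested. Figures were drawn with matplotlib 3.10.9 (Python 3.11.15).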

Additional observations from a re-analysis of the deposited data

How the results depend on the processing

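The fall of PEG10, MEST, NNAT and PLAGL1 for D135 against D105, and of these and PEG3 and CDKN1C for D135 against D85, was called in all 18 alternatives tried (pseudocounts of 0.1 and 0.5, no filter, median-of-ratios and quantile scaling, no trend, only the days compared, a replicate block with and without scaling, each library left out). The number of members called for D135 against D105 was 6 with quantile normalization, 6 without D135 replicate 2, and 4 with a replicate block and median-of-ratios scaling together, where PEG3 had an adjusted p of 0.0753, and SGCE for D135 against D85 one of 0.0893. GRB10 for D135 against D105 turned to 0.38 with median-of-ratios scaling, with or without the block, and to 0.28 with quantile normalization, and ranged from -0.14 to 0.032 with a library left out. PEG3 for D105 against D85 ranged from -0.33 to 0.12 with a library left out. For the difference between intervals, CDKN1C turned to 0.092 with median-of-ratios scaling, with or without the block, and the members called were 0 with median-of-ratios scaling, without a filter, and with the replicate block, and 0 to 1 with a library left out. Loci called in that contrast (46) were 15 with median-of-ratios scaling, 23 with quantile normalization, 3 and 5 with the block without and with scaling, and 9 (without D135 replicate 2) to 69 with a library left out. Loci called for D105 against D85 (26) were 51 without a filter, 17 with only the days compared, 8 with the block on either scale, and 14 (without D135 replicate 2) to 28 with a library left out. For D135 against D105 (5164) they were 2300 and 2058 with median-of-ratios and quantile scaling and 1628 with the block and scaling, and for D135 against D85 (6097) they were 3594, 3542 and 2966. Replicate numbers did not pair the libraries (9 correlations of same-numbered deviations from -0.0659 to 0.0605). Why values moved was not tested. FPKM without read numbers limits what can be said of low genes.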
